A study of Homo sapiens with 12 samples.

Results

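The pluripotency genes described here are POU5F1, SOX2, NANOG, SALL4, LIN28A, LIN28B, DPPA4, L1TD1, DNMT3B and PODXL. They were taken by name, and each had 1 RefSeq mRNA row in the deposited tables, so the group is 10 of 19305 rows. Ribosome profiling sequences the short mRNA pieces that ribosomes protect from nuclease, here called footprints, and the tables give the number of footprints on each coding sequence. The study asked what happens to footprints when eIF2A, a protein that can bring initiator tRNA to ribosomes, is depleted. It used H9, a human embryonic stem cell line, and HEK293T, a line derived from human embryonic kidney. The 4 H9 libraries comprised 2 labelled eIF2A shRNA and 2 labelled control shRNA, with no immunoprecipitation (IP). All 8 HEK293T libraries came from cells given sodium arsenite, an oxidative stressor, and from an IP of 1 of the cell's cap-binding proteins. With CBP80, of the nuclear cap-binding complex, 2 libraries were labelled eIF2A siRNA and 2 control siRNA. With eIF4E, the cytoplasmic cap-binding protein, 2 were likewise labelled eIF2A siRNA and 2 control siRNA. In every group, one library belongs to set 1 and the other to set 2. Nothing in the labels ties the sets to separate cultures, and p-values here reflect library-to-library spread that may be technical.

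Several facts about the libraries bear on everything below. Coding reads per library numbered 937990 to 1878700 in H9 and 4331459 to 5775177 in HEK293T, and levels are given as counts per 1000000 coding reads (CPM). A count of 0 allows up to 1.60 to 3.20 CPM in an H9 library and up to 0.519 to 0.693 CPM in a HEK293T library. HEK293T libraries of the same siRNA and set differed between the CBP80 and eIF4E labels by about the sampling noise of their counts, with a chi-square per degree of freedom of 1.01 to 1.03. Libraries of the same group from different sets lay at 3.95 to 5.52. In H9, the eIF2A and control shRNA libraries of a set lay at 1.04 and 1.07, and libraries of different sets at 2.67 to 3.31. HEK293T results are therefore also given with the CBP80 and eIF4E libraries of each siRNA and set summed. EIF2A, the targeted gene, was below its control in only 1 of the 4 cell line and set combinations. Its ratio of eIF2A to control label was 0.559 in HEK293T set 2 (95% counting interval 0.500 to 0.626) and 1.15 in HEK293T set 1 (1.05 to 1.26). In H9 it was 1.12 in set 2 (0.802 to 1.56) and 1.07 in set 1 (0.864 to 1.32). The groups below are thus named by their labels. Of 14 stem cell markers, 11 averaged at least 10 CPM in H9 and 4 (SOX2, DNMT3B, PODXL and SALL4) did so in HEK293T. These markers include every pluripotency gene described here but LIN28B, so they are not a check apart from the values below. Of 9 markers of HEK293T and its lineage, 0 averaged at least 10 CPM in H9 and 7 in HEK293T.

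Pluripotency is the capacity of a cell to form every tissue of the embryo. In human embryonic stem cells it is held by a small circuit of transcription factors, OCT4 (the product of POU5F1), SOX2 and NANOG, which bind many of the same enhancers, their own included. The other genes serve around that core: SALL4 as a partner transcription factor, the LIN28 proteins as blockers of let-7 microRNA maturation, DPPA4 and L1TD1 as chromatin and RNA-binding factors, DNMT3B as a de novo DNA methyltransferase and PODXL as a surface sialomucin. OCT4 and SOX2 bind side by side at a joint DNA element in which an octamer-type part is followed by a SOX-type part.

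RefSeq's table of upstream windows held 6 of the 10 genes (SOX2, NANOG, LIN28B, DPPA4, L1TD1 and DNMT3B). The 250 bases before each start were searched on both strands for TTTGCAT (octamer core), for ACAATG (SOX-type) and for TTTGCATNACAATG, which contains both. The octamer core was found for SOX2 and NANOG and occurs in 3.94% of all 35116 windows. The SOX-type letters were found for LIN28B and NANOG and occur in 9.29% of windows. The joint form was found for NANOG and occurs in 0.0057% of windows, 2 in all. The stretches around the NANOG and SOX2 matches are shown because both genes are members of the core circuit; capitals mark the match, which is a run of letters and not evidence of binding. They are read on the plus strand of GRCh38.p14, at chr12:7789237-7789340 for NANOG (match 120 to 107 bases before the start) and chr3:181711780-181711876 for SOX2 (match on the reverse strand, 100 to 94 bases before the start).
NANOG: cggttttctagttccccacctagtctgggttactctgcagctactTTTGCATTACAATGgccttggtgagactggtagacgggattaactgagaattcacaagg
SOX2: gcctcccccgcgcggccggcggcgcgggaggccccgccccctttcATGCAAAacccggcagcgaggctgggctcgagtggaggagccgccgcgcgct

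POU5F1, which encodes OCT4, was listed at 0 in all 12 libraries, the 4 H9 libraries included. Its row carries NM_001285986, 1 of the 5 POU5F1 mRNAs that RefSeq lists. The genes around it were at 0 as well. Of its 80 nearest protein-coding neighbours on chromosome 6, 40 on either side, 67 (83.8%) had no read in any library. Among 751 protein-coding genes of the same chromosome lying more than 120 genes away, 54 (7.19%) had none, and over all other symbols 2296 of 19296 (11.9%) had none. The empty neighbours included genes that every cell uses, named here after their values were seen: TUBB, a beta-tubulin; CSNK2B, the regulatory subunit of casein kinase; ABCF1, a translation factor; and DDX39B, an mRNA export helicase. The row of 0 is therefore shared with its neighbourhood and is not read as a level of OCT4 in either line. The cause of the gap was not tested. POU5F1 also has near-identical processed copies elsewhere in the genome, and reads with more than 1 alignment are not counted in gene rows.

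**Figure D1:**
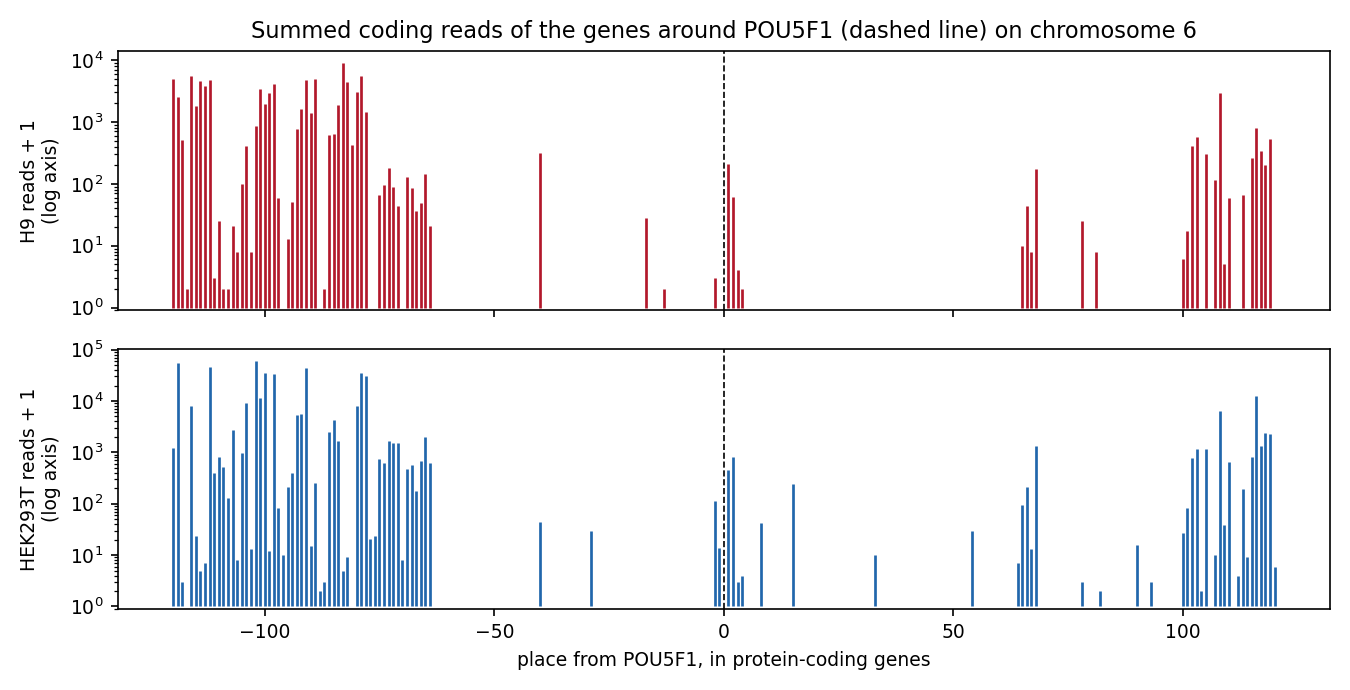
Reads summed over the 4 H9 libraries (top) and the 8 HEK293T libraries (bottom), plus 1, on log axes, for the protein-coding genes up to 120 places either side of POU5F1 (dashed line) in their order along chromosome 6. Of the 80 genes within 40 places, 67 have no read in any library, while reads return farther out on both sides.

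SOX2 and NANOG, the other members of the core circuit, were read in every H9 library. SOX2 (NM_003106, chromosome 3) had 256.0 and 266 CPM in the eIF2A shRNA libraries of sets 1 and 2, against 245 and 292 CPM in the control shRNA libraries. In HEK293T it lay between 14.0 and 23.3 CPM, with a median of 15.6 CPM over 8 libraries. No HEK293T library came near an H9 library. SOX2 lies inside the noncoding gene SOX2-OT, and whether any SOX2-OT reads fell in the SOX2 row was not tested. NANOG (NM_024865, chromosome 12) had 35.1 and 21.3 CPM in the eIF2A shRNA libraries of H9 and 27.9 and 26.5 CPM in the control shRNA libraries. These rest on 20 to 66 reads each, and the spread of NANOG over the H9 libraries, 1.65 times from lowest to highest, was the widest of the 9 members read there. HEK293T held 1 NANOG read in all 8 libraries together. Like POU5F1, NANOG has near-identical copies that can draw reads away from its row.

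SALL4 (NM_020436, chromosome 20), a zinc finger factor that binds with OCT4, had 352 and 365 CPM in the eIF2A shRNA libraries of H9 and 361 and 403 CPM in the control shRNA libraries. HEK293T held 36.5 to 47.0 CPM, with a median of 41.7 CPM. SALL4 was thus read in every library, and the ratio of H9 to HEK293T control libraries was 9.44 (95% counting interval 8.64 to 10.3). DPPA4 (NM_018189, chromosome 3), a nuclear factor of early embryos, had 478 and 476 CPM in the eIF2A shRNA libraries and 446 and 465 CPM in the control shRNA libraries of H9. In HEK293T it had 1 read in 8 libraries. L1TD1 (NM_001164835, chromosome 1), an RNA-binding protein derived from a LINE-1 element, had 1285 and 1238 CPM in the eIF2A shRNA libraries and 1323 and 1277 CPM in the control shRNA libraries. It too had 1 read over the 8 HEK293T libraries. DPPA4 and L1TD1 were among the steadiest members in H9, each spanning 1.07 times from lowest to highest library.

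The LIN28 paralogs ran in opposite directions between the lines. LIN28A (NM_024674, chromosome 1), the stem cell form, had 518 and 379 CPM in the eIF2A shRNA libraries of H9 and 503 and 379 CPM in the control shRNA libraries. It had no read in any of the 8 HEK293T libraries. LIN28B (NM_001004317, chromosome 6) had 42.6 and 29.9 CPM in the eIF2A shRNA libraries of H9 and 41.9 and 34.4 CPM in the control shRNA libraries. In HEK293T it had 175 to 203 CPM, with a median of 184 CPM. The lowest HEK293T library therefore held more LIN28B than the highest H9 library, the reverse of every other member with reads. Both proteins bind the let-7 precursor, and in the files LIN28A was the form with reads in H9 alone while LIN28B was read in both lines.

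DNMT3B (NM_006892, chromosome 20) had 2165 and 2109 CPM in the eIF2A shRNA libraries of H9 and 2240 and 2138 CPM in the control shRNA libraries. Its spread of 1.06 times was the narrowest of the 9 members read in H9. HEK293T held 41.3 to 54.5 CPM, with a median of 47.0 CPM. PODXL (NM_001018111, chromosome 7), whose protein carries the TRA-1-60 and TRA-1-81 stem cell epitopes, had 1648 and 1402 CPM in the eIF2A shRNA libraries and 1625 and 1496 CPM in the control shRNA libraries. HEK293T held 29.8 to 44.9 CPM, with a median of 36.4 CPM. Levels per gene depend on coding length, so they are compared between libraries and not between genes.

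**Figure D2:**
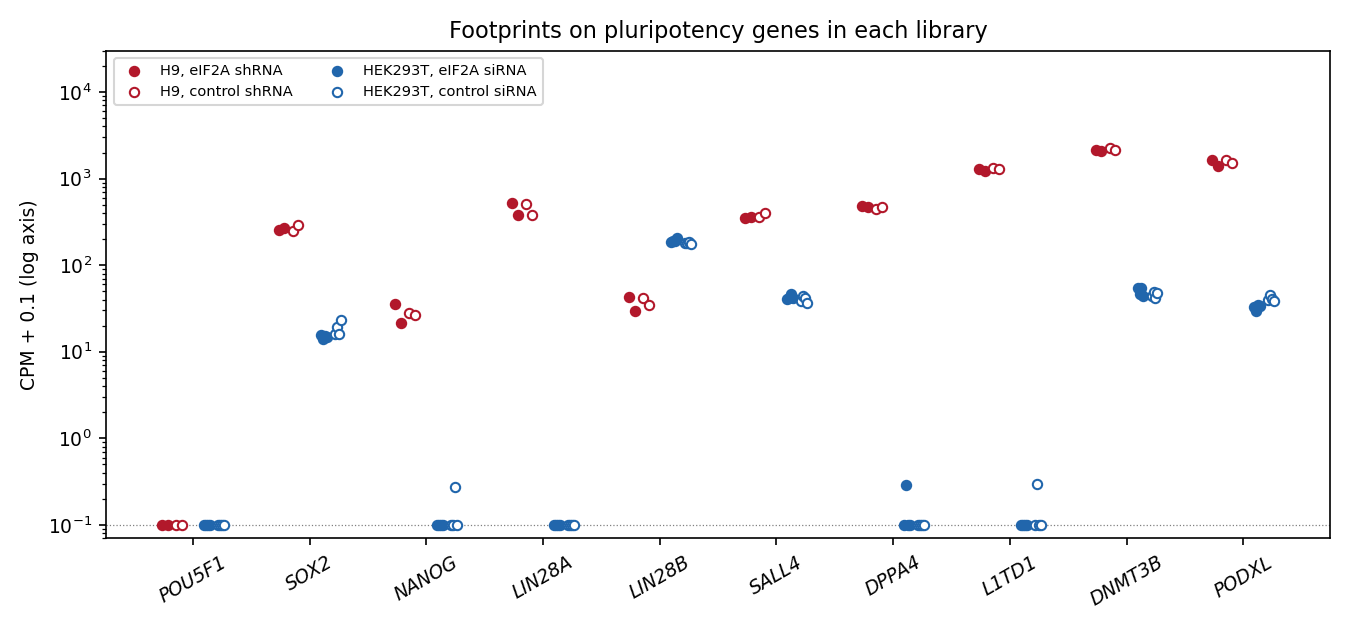
CPM plus 0.1 of each gene in each library, on a log axis, with H9 (red) left of HEK293T (blue) and eIF2A labels (filled) left of control labels (open); the dotted line marks a count of 0. LIN28B is the member whose HEK293T points (175 to 203 CPM) lie above its H9 points (29.9 to 42.6 CPM), and POU5F1 lies at 0 throughout.

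The H9 control shRNA libraries were set against the HEK293T control siRNA libraries, the IP labels summed. Cell line, arsenite, IP and knockdown reagent all differ between these groups and cannot be told apart. Of all 12307 features tested, 71.8% passed an adjusted p of 0.05 (34.5% higher in H9 and 37.3% lower), so a pass by itself says little about the members. Of the 10 members 9 were tested, and 4 of them (NANOG, LIN28A, DPPA4 and L1TD1) had reached the test only through H9. Of the 5 with reads in both lines, 4 were higher and 1 was lower in H9. DNMT3B was higher by 5.43 ± 0.16 on the log2 scale (SE), PODXL by 5.09 ± 0.16, SOX2 by 3.71 ± 0.17 and SALL4 by 3.08 ± 0.16. LIN28B fell by 2.40 ± 0.19 (edgeR adjusted p = 6.15e-37 for LIN28B and smaller for the other 4 genes). The scaling of libraries (TMM) shifts the median feature by -0.158 on this log2 scale relative to library totals, far less than these differences. LIN28A and DPPA4 had no read in the 4 HEK293T control libraries. Against a floor of 3 counts over those libraries, LIN28A was at least 3076-fold higher and DPPA4 at least 3168-fold higher. L1TD1 and NANOG had 1 control read each there, with ratios of 27150 (95% counting interval 4870 to 1073000) and 568 (99.2 to 22690).

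Relatives and partners of the members were examined as lists. Of 40 other pluripotency-associated genes 34 were tested. Of these, 8 had 3 or fewer HEK293T control reads and 3 had 3 or fewer H9 control reads, so their direction was fixed by the filter. Among the other 23, 19 were higher in H9 and 2 lower; of all 11291 features with more than 3 control reads in both lines, 3931 were higher and 3935 lower. Levels given as mean ± SD here and in the next paragraph cover all libraries of a line, both knockdown labels included. The 8 HEK293T libraries among them are not 8 independent samples, since CBP80 and eIF4E libraries of a siRNA and set differed by about sampling noise. CRIPTO, a NODAL co-receptor and 1 of those tested through H9 only, averaged 43.2 ± 8.87 CPM in H9 (SD, n = 4) and had no read in HEK293T. MYC, a transcription factor used to reprogram cells, was lower in H9, at 120 ± 19.2 CPM against 401 ± 17.1 CPM in HEK293T (SD, n = 4 and 8). MYCN, the MYC relative, ran the other way with 128 ± 10.8 CPM in H9 against 0.472 ± 0.352 CPM in HEK293T. Among 9 tested paralogs of the members, 5 were higher and 2 lower, with a median of 3.53. Those higher included SALL3, SOX3 and DNMT3A, whose 283 ± 26.7 CPM in H9 stood against 13.4 ± 1.98 CPM in HEK293T. POU3F2, a POU-family paralog, was lower by 4.12 ± 0.44 on the log2 scale, with 1.08 ± 0.82 CPM in H9 against 26.6 ± 1.95 CPM in HEK293T. DNMT3A is the second de novo methyltransferase, and it was higher in H9 by 4.32 ± 0.18 on the log2 scale. DNMT1, the maintenance enzyme, was lower by 0.67 ± 0.14, and in the methylation list as a whole 4 of 8 tested were higher and 2 lower, with a median of 0.20.

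The LIN28 and let-7 list holds enzymes of let-7 processing and genes that let-7 represses. Of 19 tested, 12 were higher and 4 lower in H9, with a median log2 difference of 0.66 beside -0.07 over all features. The 16 calls of 19, like the 6 of 8 in the methylation list and the 7 of 9 among paralogs, are near the 71.8% of all features that passed. The let-7 targets HMGA2 (39.6 ± 8.81 CPM in H9 against 7.66 ± 2.04 CPM in HEK293T), IGF2BP2, CCND2 and ARID3B were among those higher. NRAS, also a let-7 target, had less in H9, with 82.4 ± 8.16 CPM against 127 ± 7.22 CPM. Genes of let-7 processing ran both ways. DICER1, which cuts the let-7 precursor, was lower, with 80.9 ± 3.35 CPM in H9 against 186 ± 36.6 CPM in HEK293T. DROSHA also had less in H9, with 107 ± 3.29 CPM against 185 ± 21.1 CPM. XPO5 (385 ± 41.3 CPM in H9 against 259 ± 23.7 CPM), DGCR8 and AGO2 had more in H9. In the self-renewal signalling list, 12 of 15 were higher and 1, FGFR3, was lower, with a median of 1.51. Its 13 calls of 15 stand beside that same 71.8%. FGFR1, a receptor for the FGF2 in stem cell media, was higher by 2.93 ± 0.17. Each difference carries the same confounding as the members.

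Markers of other cells were also read. In H9 the summed level of 9 fibroblast genes was 949 to 1237 CPM, against 22.8 to 29.4 CPM in HEK293T, with 5 of 9 at 10 CPM or more and 2 at 0 in H9. Those at 10 CPM or more included THY1, which human embryonic stem cells are also known to carry, and COL1A2 and TAGLN. The 2 at 0 were DCN and LUM, and COL3A1 averaged 1.05 CPM in H9 against 2.48 CPM in HEK293T. Of 8 endoderm genes none averaged 10 CPM in H9 and 3 had no read there. Of 9 trophoblast and amnion genes 7 had no read in H9. The 10 neural ectoderm genes summed to 730 to 1273 CPM in H9, against 78.1 to 89.5 CPM in HEK293T, with 4 at 10 CPM or more and 3 at 0 in H9. The 8 mesoderm genes summed to 238.5 to 299.6 CPM in H9, against 8.62 to 16.4 CPM in HEK293T, with 4 at 0 in H9 and 1, KDR, at 10 CPM or more. In bulk libraries, fewer cells of a type and less RNA per cell cannot be told apart, and whether feeder or differentiated cells gave part of these reads was not tested.

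Knockdown in HEK293T could be asked of the 5 members with reads there, and 0 of 5 passed in either IP label, where 4.02% of all 11778 features passed with the CBP80 label (1.55% higher, 2.47% lower) and 3.25% with the eIF4E label (1.25% higher, 2.0% lower). At an unadjusted p under 0.05, 1 member stood in the CBP80 comparison and 2 in the eIF4E comparison. DESeq2 called 455 and 436 features against edgeR's 473 and 383. With the set as a block, edgeR called 2942 and 2776 features, and PODXL then passed with CBP80 but no member with eIF4E. With the IP labels summed, 1 of 5 members passed, PODXL, on the lower side, where 12.4% of 12331 features passed (6.15% higher and 6.29% lower).

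PODXL was the member nearest to a call. With the CBP80 label it had 33.0 and 29.8 CPM in the eIF2A siRNA libraries of sets 1 and 2, against 39.8 and 44.9 CPM in the control siRNA libraries. With the eIF4E label it had 34.3 and 33.6 CPM, against 40.8 and 38.6 CPM in control. The eIF2A siRNA libraries lay below the control libraries in both sets and under both labels, with no overlap, and groups of 2 did not overlap for 53.5% of features with CBP80 and 52.8% with eIF4E. Since the 2 labels of a siRNA and set differed by about sampling noise, they are not separate support. The fit of all HEK293T libraries nevertheless counts them as separate samples. The fitted log2 change was -0.52 ± 0.14 with CBP80 (edgeR adjusted p = 0.0501), -0.31 ± 0.14 with eIF4E (edgeR adjusted p = 0.204) and -0.42 ± 0.15 summed (edgeR adjusted p = 0.0457). The value with CBP80 passed the threshold in 5 of the alternative settings and in none of those that left out a library, where the log2 change ranged from -0.62 to -0.38. Among the alternatives, the set as a block gave an edgeR adjusted p of 0.00245 with CBP80 and 0.0514 with eIF4E. With labels summed, the ratio of eIF2A to control siRNA for PODXL was 0.757 in set 2 (95% counting interval 0.654 to 0.875) and 0.835 in set 1 (0.723 to 0.964). EIF2A itself was lower in set 2 only, while PODXL was lower in both. Whether the levels of these genes are linked was not tested.

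SOX2 had 15.4 and 14.0 CPM in the eIF2A siRNA libraries of sets 1 and 2 with CBP80, against 16.0 and 19.2 CPM in control. With eIF4E it had 15.2 and 14.9 CPM, against 15.8 and 23.3 CPM in control. The libraries of set 1 were almost level and those of set 2 apart: the summed ratio was 0.687 in set 2 (0.554 to 0.849) and 0.961 in set 1 (0.768 to 1.20). Its fitted log2 change was -0.40 ± 0.18 with labels summed (edgeR adjusted p = 0.128) and did not pass.

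DNMT3B differed in the other set. With CBP80 it had 54.5 and 46.4 CPM in the eIF2A siRNA libraries of sets 1 and 2, against 43.5 and 49.5 CPM in control. With eIF4E it had 54.1 and 44.0 CPM, against 41.3 and 47.6 CPM. The summed ratio was 1.28 in set 1 (1.13 to 1.45) and 0.929 in set 2 (0.817 to 1.06), so the sets ran in opposite directions, and the fitted log2 change over both was 0.04 ± 0.14 (edgeR adjusted p = 0.903). LIN28B had 184 and 192 CPM in the eIF2A siRNA libraries with CBP80, against 182 and 181 CPM in control. With eIF4E it had 188 and 203 CPM, against 185 and 175 CPM. Its summed ratio was 1.11 in set 2 (1.04 to 1.18) and 1.01 in set 1 (0.950 to 1.08), and the sign of its fitted change depended on the scaling. SALL4 had ratios of 1.03 in set 2 (0.898 to 1.18) and 1.08 in set 1 (0.948 to 1.24), both intervals holding 1. Beside these values, uniquely placed reads that fell outside coding sequence made up 42.4 to 51.3% of unique reads in the eIF2A siRNA libraries and 35.3 to 40.2% in the control siRNA libraries. Its part in these ratios was not tested.

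**Figure D3:**
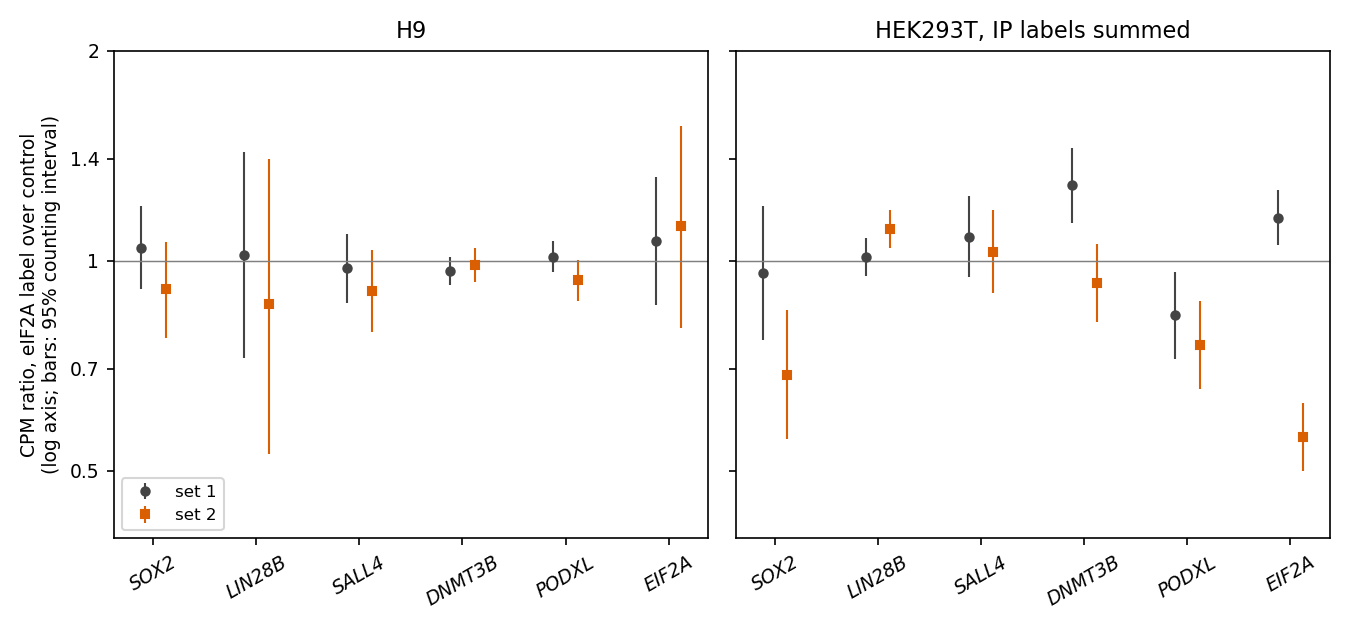
CPM ratio of eIF2A to control label for each set in H9 (left) and in HEK293T with the IP labels summed (right), on a log axis, with 95% counting intervals as bars. In HEK293T, PODXL lies below 1 in both sets (0.835 and 0.757), DNMT3B on opposite sides of 1 (1.28 and 0.929) and EIF2A on opposite sides (1.15 and 0.559), while in H9 every interval of the 6 genes holds 1.

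No difference between the IP labels was detectable for the members at this depth. For SOX2, SALL4, LIN28B, DNMT3B and PODXL, the ratio of CBP80 to eIF4E within a siRNA and set was between 0.821 and 1.20 in 20 comparisons, and 0 of the 20 counting intervals left out 1. Among the partner lists in HEK293T, TUT4 rose with the eIF2A siRNA label. TUT4 is the terminal uridylyltransferase that LIN28A recruits to the let-7 precursor. It had 83.1 and 60.8 CPM with CBP80 in sets 1 and 2, against 44.9 and 35.2 CPM in control, and 83.2 and 61.8 CPM with eIF4E, against 43.2 and 33.9 CPM. Both sets and both labels lay above their controls, while groups of 2 did not overlap for 53.5% of features with CBP80 and 52.8% with eIF4E. The 2 labels of a siRNA and set differed by about sampling noise, so they are not separate support. The log2 change was 0.75 ± 0.17 with CBP80 (edgeR adjusted p = 0.029), 0.81 ± 0.17 with eIF4E (edgeR adjusted p = 0.0257) and 0.78 ± 0.14 summed (edgeR adjusted p = 0.000121). Without 1 of the libraries it ranged from 0.56 to 0.99, and the adjusted p reached 0.318. TUT4 was 1 of 19 tested in its list to pass. FGFR1 and FGFR2 rose with the CBP80 label, by 0.70 ± 0.15 and 0.86 ± 0.17 (edgeR adjusted p = 0.0258 and 0.0214), and 2 of 15 signalling genes passed. With the eIF4E label 0 of those 15 passed, and with labels summed the same 2 did, at 0.59 ± 0.15 for FGFR1 and 0.61 ± 0.16 for FGFR2 (edgeR adjusted p = 0.00554 and 0.00687). CXCR4, of the endoderm list, fell by 0.70 ± 0.17 with CBP80, and TAGLN, of the fibroblast list, rose by 1.76 ± 0.46, at levels of at most 29.4 CPM for CXCR4 and 5.13 CPM for TAGLN in any HEK293T library. Each of FGFR1, FGFR2, CXCR4 and TAGLN lost its call when certain single libraries were left out, with adjusted p up to 0.255, 0.436, 0.284 and 0.337 in that order of genes, the fits with labels summed included. In the lists of other pluripotency-associated genes, methylation machinery and paralogs, 0 of 22, 0 of 8 and 0 of 7 passed with either label. With labels summed, 1 of 22 pluripotency-associated genes passed: TERF1, a telomere-binding protein, at 0.63 ± 0.17 (edgeR adjusted p = 0.00838). It had 27.6 and 22.9 CPM with CBP80 in sets 1 and 2, against 16.7 and 13.4 CPM in control, and 30.3 and 20.3 CPM with eIF4E, against 16.0 and 15.2 CPM. For TERF1 every eIF2A siRNA library thus lay above the controls, beside the same 53.5% and 52.8% of features without overlap. Without 1 of the summed libraries its change ranged from 0.45 to 0.77 and the adjusted p reached 0.316. These counts stand beside 4.02% of all features with CBP80, 3.25% with eIF4E and 12.4% summed.

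In H9 the eIF2A and control shRNA libraries were compared for all 9 members with reads. None passed, and 0.0% of 9751 features did, by edgeR and by DESeq2 alike. At an unadjusted p under 0.05 there were 84 features, 0.861%, and none was a member. That share is below the threshold of 0.05 itself, and this fit leaves the difference between sets in its spread. Its fitted log2 changes lay between -0.09 for SALL4 and 0.11 for NANOG. With the set as a block, 0 features passed, while the SE went from 0.097 to 0.026 for DNMT3B and from 0.29 to 0.22 for NANOG. These counts therefore do not show that the members did not change. Groups of 2 did not overlap for 23.7% of features in H9, and among the 9 members this held for 1, DPPA4, whose eIF2A shRNA libraries lay above its control shRNA libraries. Within a set, none of the 18 counting intervals of the members left out 1. DNMT3B had the narrowest, with ratios of 0.986 in set 2 (0.932 to 1.04) and 0.967 in set 1 (0.924 to 1.01). L1TD1 had 0.969 (0.900 to 1.04) and 0.972 (0.916 to 1.03), and PODXL 0.937 (0.875 to 1.004) and 1.014 (0.962 to 1.069). NANOG had the widest, with 0.806 (0.446 to 1.41) and 1.26 (0.847 to 1.89). The test of the difference itself, knockdown label in H9 minus that in HEK293T, gave 0.37 ± 0.20 for PODXL on the log2 scale (edgeR adjusted p = 0.629) and called 0.0% of 12911 features by edgeR and 0 by DESeq2, with 1062 at an unadjusted p under 0.05, none of them a member. With the set as a block, edgeR called 571 features in this difference, and PODXL did not pass (edgeR adjusted p = 0.0711).

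**Figure D4:**
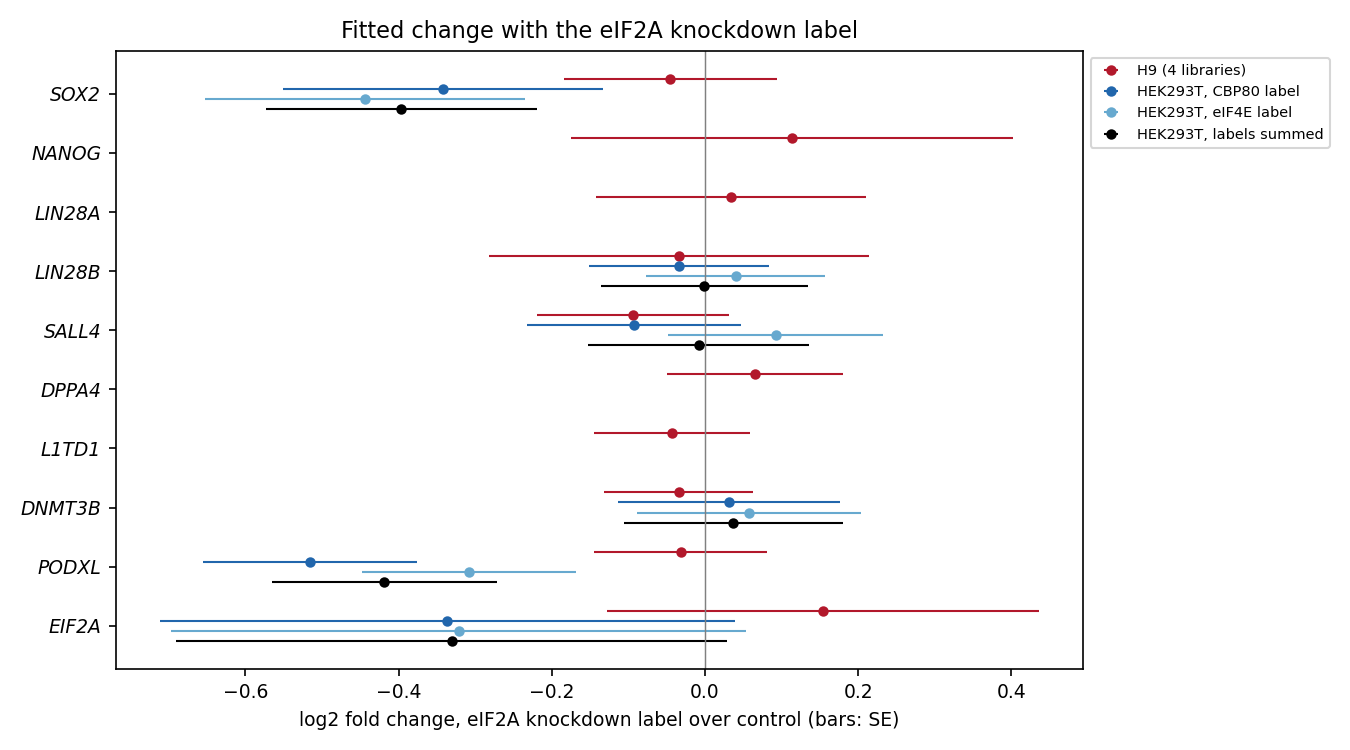
Fitted log2 change of eIF2A over control label (points) with its SE (bars) for the members tested and for EIF2A, in H9, in HEK293T with either IP label, and in HEK293T with the labels summed. The H9 points of the members lie between -0.09 and 0.11, and PODXL and SOX2 lie below 0 in the HEK293T fits.

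The larger difference among H9 libraries was between the sets. Ratios of set 2 to set 1, with the shRNA labels summed, are given as a description, since each set holds 1 library per label. Of 7386 features with at least 100 reads in H9, 28.5% lay more than 1.25-fold apart, 11.4% higher and 17.0% lower in set 2. Of 9 members, 0 lay higher and 3 lower past that size. LIN28A had 379 CPM in both set 2 libraries against 518 and 503 CPM in set 1, so the sets did not overlap, and its ratio was 0.740 (95% counting interval 0.683 to 0.802). LIN28B had a ratio of 0.773 (0.581 to 1.02) and NANOG one of 0.770 (0.552 to 1.06), both on fewer reads and with 1 inside the interval. PODXL was at 0.891 (0.855 to 0.930) and SOX2 at 1.12 (1.01 to 1.24). DPPA4 was level at 1.01 (0.936 to 1.09), as were L1TD1 at 0.969 (0.926 to 1.01) and DNMT3B at 0.967 (0.933 to 1.002). Within a label, LIN28A was at 0.730 (0.645 to 0.825) with eIF2A and 0.753 (0.675 to 0.839) with control. LIN28B was at 0.701 (0.439 to 1.09) and 0.822 (0.560 to 1.20), and NANOG at 0.607 (0.348 to 1.014) and 0.949 (0.603 to 1.49), so neither passed 1.25-fold in the control libraries.

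**Figure D5:**
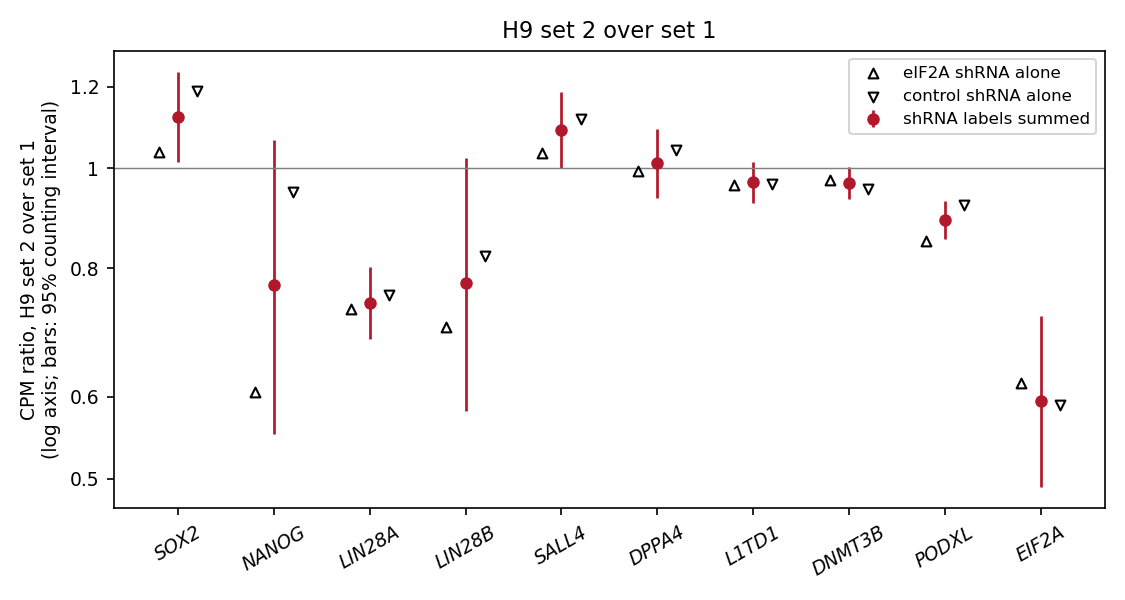
CPM ratio of H9 set 2 to set 1 on a log axis, with the shRNA labels summed (red points, 95% counting interval as bars) and for each label alone (open triangles). LIN28A lies at 0.730 with the eIF2A label and 0.753 with the control label, DPPA4, L1TD1 and DNMT3B lie between 0.967 and 1.01 with labels summed, and EIF2A lies at 0.595.

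EIF2A was the gene of this plot with the lowest ratio, 0.595 (0.490 to 0.719), although the set number and not the shRNA label separated the libraries. It had 110 and 68.2 CPM in the eIF2A shRNA libraries of sets 1 and 2 and 103 and 60.9 CPM in the control shRNA libraries. Other genes, chosen after their values were seen, also differed between the sets. TRIM71, a let-7 target that marks stem cells, was lower in set 2 at 0.772 (0.682 to 0.872). The LIN28 and let-7 list, in which TRIM71 is not counted, did not share that direction. Of its 18 genes with at least 100 reads in H9, 4 lay more than 1.25-fold higher in set 2 and 0 lower, with a median ratio of 1.049. The let-7 targets HMGA2, at 1.399 (1.071 to 1.826), and CCND2, at 1.349 (1.224 to 1.486), were higher in set 2. SOX3, a SOX2 relative active in neural progenitors, was higher at 2.52 (1.95 to 3.28), as were NES, an intermediate filament of neural progenitors, at 2.31 (2.17 to 2.46) and CCND1 at 2.61 (2.18 to 3.14). TUBB3, a neuronal tubulin, was lower at 0.598 (0.515 to 0.693). MAP2, a neuronal microtubule protein, was lower at 0.742 (0.585 to 0.937). The summed level of 10 neural ectoderm genes was 1256 to 1273 CPM in set 2 against 730 to 751 CPM in set 1. NES carried that difference: the other 9 genes summed to 189.8 to 208 CPM in set 2 against 271 to 285 CPM in set 1, and of the 4 with enough reads 2 were higher and 2 lower. The 9 fibroblast genes summed to 1179 to 1237 CPM in set 2 against 949 to 966 CPM in set 1. The part of other cells in the set difference was not tested.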

How the data were processed

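The 12 libraries are ribosome profiling of polyA RNA, extracted with TRIzol and made with a small RNA kit, per the labels' protocols. The submitters' processing notes name cutadapt, STAR 2.5.2b and the build hg19. Which program counted reads, with which strand setting and annotation release, is not given in the sources used here. Each deposited table lists raw counts, 1 whole number for every RefSeq mRNA accession, without normalization. Rows naming no gene, chiefly reads with more than 1 alignment, took 96.2 to 96.5% of H9 counts and 87.5 to 89.5% of HEK293T counts and were left out of library sizes and tests. The mRNA-seq that the design text mentions was not used here, so footprints follow both mRNA level and translation.

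Names came from RefSeq's GRCh38.p14 table for 18884 of 19305 accessions, used for names, gene order and upstream sequences; 421 kept their accession. The members and gene lists were chosen with earlier results of these data known. Tests used edgeR 4.0.16 under R 4.3.3 (filterByExpr, TMM, estimateDisp, robust glmQLFit, glmQLFTest), adjusted by Benjamini-Hochberg over all features tested, at 0.05. The 8 HEK293T libraries shared 1 fit. Ratios have exact binomial 95% intervals, which cover counting error only, since reads carried no molecular identifiers. Alternatives were RLE scaling, library totals, DESeq2 1.42.0, a minimum mean count of 50 or no filter, single IP labels, IP labels summed, leaving out each library and the set as a block. Chosen after seeing the data were the fits without each summed library and the split of lists by control reads in both lines. The tests were tried on simulated counts in which 200 genes changed 2-fold. Recovery of all 200 was 79.5% in the CBP80 comparison and 77% in eIF4E (11778 genes tested in each). It was 66% in H9 (9751), 67% in H9 against HEK293T (12307) and 40% in the difference of effects (12911). Above a mean count of 100, recovery in that order was 99.2%, 96.6%, 98.7%, 91.2% and 58%, of 118, 118, 78, 136 and 131 changed genes. NANOG and LIN28B in H9 lie below that count.

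Genes were named by rule: all 10 members, EIF2A, and at most 4 genes per list past the threshold; list genes named beyond it, those of the H9 sets included, were chosen after their values were seen. A planned search for genes most like POU5F1 could not be run, since it is 0 throughout. Each comparison has only 2 set numbers, which no label calls a shared batch, so sets were not treated as pairs in the main fits. Set 1 minus set 2 deviations did correlate between knockdown labels, at 0.387 to 0.451. The main fits thus leave a shared part of the set difference unmodelled, and calls with the set as a block are given beside them.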

Additional observations from a re-analysis of the deposited data

How the results depend on the processing

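Of 68 recounts of called members under an alternative, 62 gave the same count and 6 gave another. In the CBP80 comparison the count was 1 and not 0, always PODXL, with no count filter, with a mean count of at least 50, with the replicate block, with CBP80 libraries alone and with IP labels summed. Summing gave 1 in the eIF4E comparison too. Leaving out a library gave 0 in each knockdown comparison and in the difference of effects, and 9 in H9 against HEK293T. With the replicate block PODXL had an adjusted p of 0.00245 in CBP80 and 0.0514 in eIF4E (edgeR), against 0.0501 and 0.204 without it, and 0.0711 in the difference of effects. The block changed no other member's call. By the labels, libraries of a set share only a number. Their set 1 minus set 2 deviations correlated between knockdown labels at 0.408 (CBP80), 0.387 (eIF4E) and 0.451 (H9) over 6996 genes. Part of the set difference was thus common to both knockdown labels, and the main fits do not model it. Signs turned as follows on the log2 scale. LIN28B in CBP80 was 0.049 with library totals, and with IP labels summed LIN28B was -0.00079 and SALL4 -0.0083 against positive values in eIF4E. Leaving out a library, CBP80 values ran from -0.11 to 0.046 for LIN28B, -0.075 to 0.15 for DNMT3B, -0.19 to 0.016 for SALL4 and -0.89 to 0.066 for EIF2A. In eIF4E they ran from -0.067 to 0.14 for LIN28B, -0.060 to 0.17 for DNMT3B, 0.015 to 0.18 for SALL4 and -0.86 to 0.080 for EIF2A. With labels summed and a library left out, values opposite in sign to CBP80 were 0.00011 and 0.089 for LIN28B, -0.080 and -0.050 for DNMT3B, 0.0059 and 0.0071 for SALL4 and 0.060 for EIF2A, and those opposite to eIF4E were -0.11 and -0.0089 for LIN28B, -0.032 and -0.031 for SALL4 and the same for DNMT3B and EIF2A. In H9 they ran from -0.17 to 0.097 for SOX2, -0.34 to 0.36 for NANOG, -0.20 to 0.24 for LIN28A, -0.34 to 0.14 for LIN28B, -0.14 to 0.066 for PODXL and -0.25 to 0.58 for EIF2A. EIF2A in H9 against HEK293T ran from -0.57 to 0.16. The difference of effects ran from -0.38 to 0.16 for LIN28B, -0.20 to 0.019 for DNMT3B and -0.19 to 0.0017 for SALL4. Called features, 473 in CBP80 and 383 in eIF4E, were 287 and 186 with library totals, 994 and 869 with no count filter, 2942 and 2776 with the replicate block, 863 and 1086 with that label alone and 1534 with labels summed; single libraries left out gave 3 to 741 and 0 to 602. The block called 571 and not 0 in the difference of effects. With library totals CXCR4 and TAGLN no longer passed in CBP80, nor CXCR4 with DESeq2. PODXL's H9 set ratio was 0.850 with eIF2A shRNA alone. The causes were not tested.

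Levels per kilobase were not run, as no coding lengths were used here. Depth limits NANOG and LIN28B most in H9, with 20 to 66 and 28 to 80 reads a library. The HEK293T fits take as separate samples libraries whose counts could not be told apart, and the H9 fit has 4 libraries that separate by set, so a p above the threshold does not show that a gene did not change. The simulated libraries were independent, and their recovery does not carry over to such pairs.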
